A study of Mus musculus with 3 samples.

Results

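The Id proteins, the E proteins and the Notch receptors with their target Hes1 were followed in mouse LSK cells, the lineage-negative Sca-1+ Kit+ fraction in which blood stem cells and early progenitors are found. The members were chosen as all probe sets annotated to Id1, Id2, Id3, Tcf3, Tcf4, Tcf12, Notch1, Notch2 and Hes1, which gave 24 of the 45101 probe sets on the array and 9 of 18194 named genes. A probe set is the group of short probes whose combined signal measures a transcript. None of the 24 was annotated to a further gene.

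There were 3 Affymetrix arrays, 1 per genotype: wild-type LSK cells (WT), LSK cells of p53 -/- mice (p53 KO) and LSK cells of p53 -/- Mef -/- mice (DKO). Mef is an ETS transcription factor encoded by Elf4. Both knockout groups thus lack p53, and DKO differs from p53 KO by the further loss of Mef. The sources used here give neither age, strain and allele nor how many animals or sorts were pooled for an array.

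Id proteins are helix-loop-helix proteins without the basic region that contacts DNA. They pair with E proteins, which bind E boxes in DNA as dimers, and keep them off their sites. In blood formation E proteins open the lymphoid programme, and Id proteins restrain it and support other fates. Notch receptors are cleaved when a ligand on a neighbouring cell binds them. The freed intracellular part joins the DNA-binding protein Rbpj and activates genes such as Hes1, and signalling through Notch1 directs early progenitors to the T lineage.

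All values given are array signal intensities, not logged unless so named. A floor was set at 110.4, the median signal over the 3 arrays, and dimmer signals were raised to it before log2 was taken. Differences are in log2, and a positive one means a higher signal on the array that is named ahead of the word "against". With 1 array per genotype there is no error on any value, no test was made, and whether the genotypes overlap could not be judged. Neither can fewer cells of a type and less RNA per cell be told apart in these bulk samples. A probe set was compared with itself across arrays and never with another probe set, since probes differ in brightness.

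Median signal over all probe sets was 98.0 to 129 across the arrays, with DKO highest, and the 2% trimmed mean was 500 on each. Elf4, the gene removed in DKO, had signals of 57.4 on WT, 182 on p53 KO and 151 on the array labelled DKO, and 74.3, 173 and 129 by another probe set. It was not lower there than on WT, and the position of its probe sets relative to the deletion was not known. Directions against the DKO array therefore rest on its label. The p53 transcript was not analysed here, so the p53 KO label was not checked by it either. Kit, a defining marker of LSK cells, had signals of 4996 on WT, 2522 on p53 KO and 4873 on DKO, while Ly6a, which encodes Sca-1, was not analysed here.

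Id2 was the member that differed most, and it alone passed 2-fold when each gene was read by its brightest probe set. Id2 was 3.62-fold higher on p53 KO than on WT and 2.86-fold lower on DKO than on p53 KO. Tcf4 was higher on DKO than on WT by all 5 of its measured probe sets. Tcf3 was lower on p53 KO than on WT by both of its measured probe sets. Notch2 and the brightest Tcf12 probe set gave nearly equal signals on all arrays. Id1, Id3 and Hes1 were near or below the floor.

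**Figure D1:**
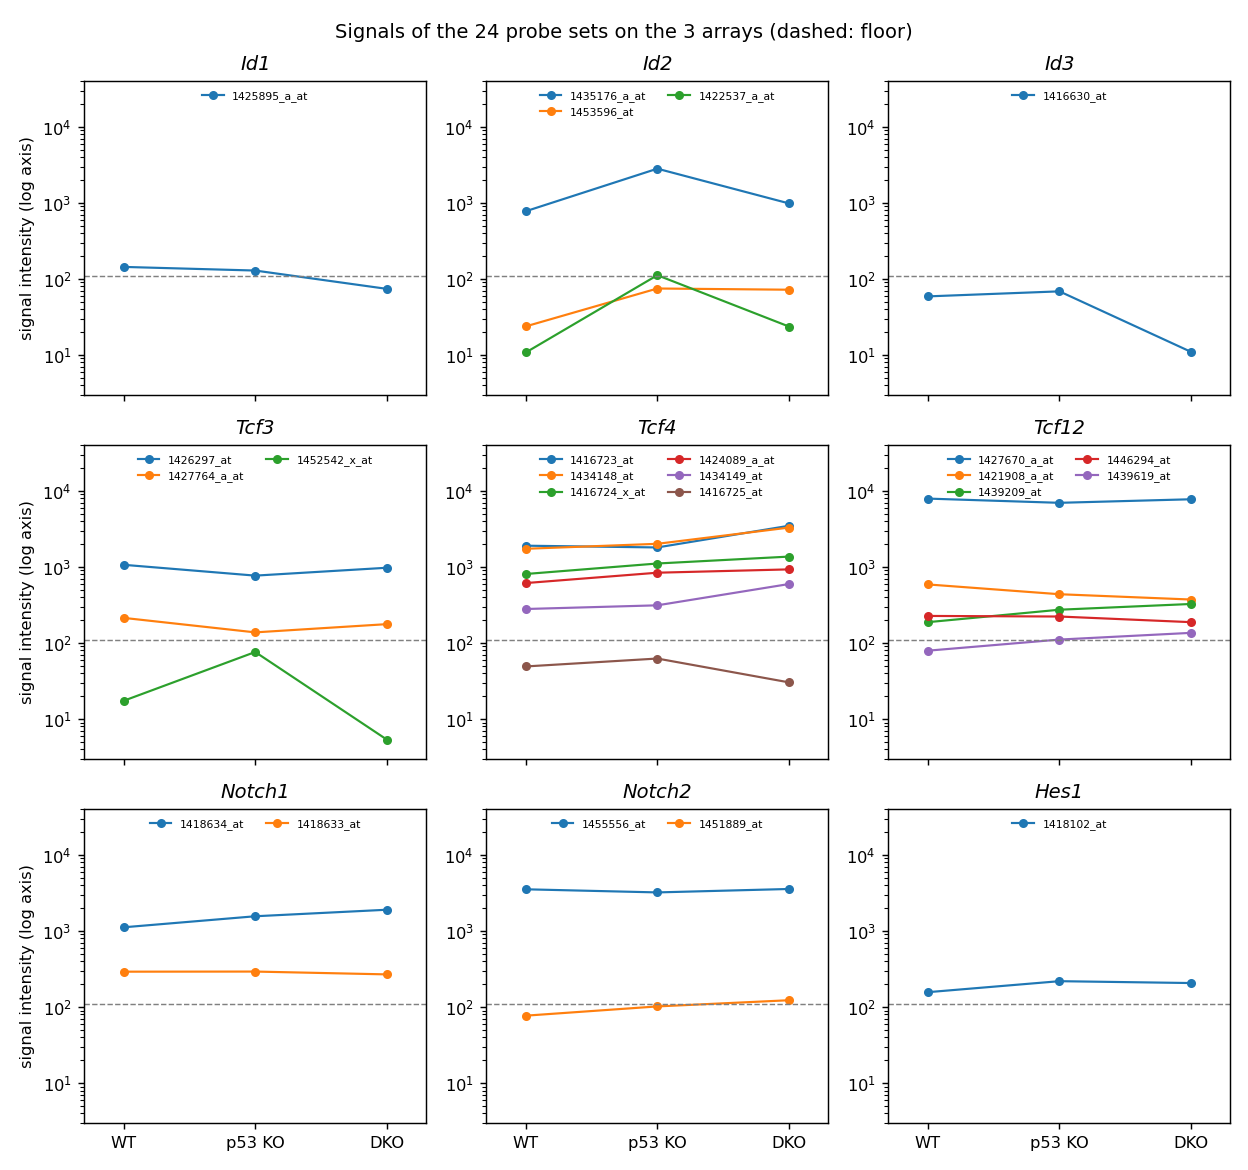
Signal intensity on a log axis of each of the 24 member probe sets (1 line each, 1 panel per gene) on each array (WT, p53 KO, DKO), with the floor of 110.4 dashed. Id2 peaks on p53 KO at 2817, the 5 upper Tcf4 lines are highest on DKO, and the Tcf12 lines run in both directions; lines join 1 array per genotype and carry no error.

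Of the 24 probe sets, 20 reached the floor on at least 1 array, 16 did so on all 3, and 4 were below it throughout. The 4 were the only Id3 probe set and 1 each of Id2, Tcf3 and Tcf4. With the probe set of highest mean signal standing for each gene, 8 of 9 member genes were measured and Id3 was not. The members that passed this floor did so through their own signal, so counts over them describe the 8 and not all 9 members.

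Id2 encodes the Id protein that innate lymphoid, NK and dendritic cells need, and its 1435176_a_at probe set had signals of 777 on WT, 2817 on p53 KO and 985 on DKO. The p53 KO array alone was high, and WT and DKO were close to each other. The log2 difference from WT was 1.86 on p53 KO and 0.34 on DKO, and DKO against p53 KO gave -1.52. Its other probe sets reached the floor on at most 1 array. Signals of 1422537_a_at were 10.8 on WT, 112 on p53 KO and 23.7 on DKO, and those of 1453596_at were 23.8, 74.9 and 72.2. Both were lowest on WT, but values under the floor have no order. The Id2 difference thus rests on 1 of 3 probe sets. With the gene taken as the mean of all 3 p53 KO stood 0.63 over WT, and DKO differed from p53 KO by -0.51, under 2-fold in both. Signals under the floor were raised to it, so the dim probe sets gave 0.00 and 0.02 for p53 KO against WT. They were bound to pull this mean down, which therefore does not show a smaller Id2 difference.

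The 250 bases upstream of the Id2 start site are shown because Id2 is the member with the large difference, beside those of Tcf3 and of the 3 annotated starts of Tcf12, whose probe sets are compared below. Sequences are from RefSeq (build GRCm38.p6), 5′ to 3′ on the strand of the gene, which is the minus strand for all 5 windows, and capitals mark E boxes (CANNTG), the sites that E protein dimers bind.
Id2, chr12:25096093-25096342: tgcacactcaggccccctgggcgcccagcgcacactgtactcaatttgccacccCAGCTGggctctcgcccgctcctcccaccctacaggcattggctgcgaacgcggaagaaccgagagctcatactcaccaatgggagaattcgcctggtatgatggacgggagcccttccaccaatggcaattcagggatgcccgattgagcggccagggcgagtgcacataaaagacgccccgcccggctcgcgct
Tcf3, chr10:80433636-80433885: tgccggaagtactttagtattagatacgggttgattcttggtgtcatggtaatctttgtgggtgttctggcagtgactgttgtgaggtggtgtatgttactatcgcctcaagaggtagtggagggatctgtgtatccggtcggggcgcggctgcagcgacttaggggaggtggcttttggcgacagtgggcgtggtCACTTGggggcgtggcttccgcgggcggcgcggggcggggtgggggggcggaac
Tcf12, chr9:72111820-72112069: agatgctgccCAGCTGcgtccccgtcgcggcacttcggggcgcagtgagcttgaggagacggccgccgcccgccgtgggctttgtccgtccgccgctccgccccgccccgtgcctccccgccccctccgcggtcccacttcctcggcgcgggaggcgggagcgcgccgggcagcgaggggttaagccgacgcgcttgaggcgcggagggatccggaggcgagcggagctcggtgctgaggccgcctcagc
Tcf12, chr9:72111202-72111451: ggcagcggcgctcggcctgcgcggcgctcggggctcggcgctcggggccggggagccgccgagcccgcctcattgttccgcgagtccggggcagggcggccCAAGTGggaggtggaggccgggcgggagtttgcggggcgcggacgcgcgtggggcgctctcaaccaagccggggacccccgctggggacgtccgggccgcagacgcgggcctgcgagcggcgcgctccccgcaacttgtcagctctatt
Tcf12, chr9:71896097-71896346: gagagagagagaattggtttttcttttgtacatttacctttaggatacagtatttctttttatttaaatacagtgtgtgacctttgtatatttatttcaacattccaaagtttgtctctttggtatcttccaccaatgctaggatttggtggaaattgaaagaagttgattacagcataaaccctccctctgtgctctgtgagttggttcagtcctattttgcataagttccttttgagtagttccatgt

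RefSeq promoter entries matched 6 of the 9 members, with 8 windows in all, and Id1, Tcf4 and Hes1 were not matched. An E box (CANNTG, which reads the same on both strands) was found in 4 of the 8 windows, against 66.2% of all 32851 windows of this length. The form CAGCTG, itself a CANNTG, stood in the Id2 window and in 1 Tcf12 window, and in 4271 of the 32851 windows overall. The form CAGGTG or its reverse complement CACCTG was in 0 of the 8, beside 17.2% of all. The N box CACNAG, a site of Hes repressors searched on both strands, was in the Notch1 and Notch2 windows and in 36.7% of all. The Rbpj core TGGGAA, on both strands, and the p53 decamer were in none of the 8, and in 21.6% and 7.13% of all windows. A match describes the letters in the window and is not evidence of binding, and a window without a match says nothing about the factor.

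Id1 and Id3, which BMP signalling induces in many cells, were dim. Id1 had signals of 144 on WT, 129 on p53 KO and 74.1 on DKO. Only the DKO array was below the floor, and Id1 was lower there than on WT by at least 0.38 on the log2 scale (log2 difference -0.38). Id3 had signals of 59.0, 68.7 and 11.0 in the same order of arrays, all below the floor, so no difference is given. Id1 was not higher on p53 KO than on WT, unlike Id2, and for Id3 this could not be judged.

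Tcf4 encodes E2-2, the E protein that plasmacytoid dendritic cells depend on, and had 6 probe sets. Signals of 1416723_at were 1903 on WT, 1805 on p53 KO and 3478 on DKO. Signals of 1434148_at were 1733, 2015 and 3291, and those of 1434149_at were 280, 313 and 596. In these 3 the DKO array stood above both others, which were close together. The probe sets 1416724_x_at, at 808, 1110 and 1368, and 1424089_a_at, at 614, 840 and 929, were instead already higher on p53 KO. An _x_at set holds probes that may also bind other transcripts, and an _a_at set recognises several transcripts of the gene.

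For DKO against WT the 5 measured Tcf4 probe sets lay between 0.60 and 1.09 in log2 difference, all higher. For DKO against p53 KO they lay between 0.14 and 0.95, again all higher. For p53 KO against WT they lay between -0.08 and 0.46, with 4 higher and 1 lower. The remaining probe set, 1416725_at, was below the floor at 49.2, 62.5 and 30.4. Only 1434149_at passed 2-fold against WT.

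Tcf3 encodes E2A, the E protein that B cell development requires. Signals of 1426297_at were 1067 on WT, 769 on p53 KO and 976 on DKO, and those of 1427764_a_at were 214, 138 and 177. Both were lowest on p53 KO, with DKO between p53 KO and WT. The log2 differences for p53 KO against WT were -0.47 and -0.63, and those for DKO against WT were -0.13 and -0.27. The third probe set, 1452542_x_at, was below the floor throughout. No Tcf3 probe set differed by 2-fold.

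Tcf12 encodes HEB, the partner E protein of early thymocytes. Its 1427670_a_at probe set had signals of 7918 on WT, 6969 on p53 KO and 7760 on DKO, so the arrays were within 1.14-fold of each other. Its other probe sets parted. Signals of 1421908_a_at were 589, 438 and 373, lowest on DKO (-0.66 against WT). Signals of 1439209_at were 188, 274 and 326, highest on DKO (0.80 against WT). The probe set 1439619_at also stood highest on DKO, at 79.3, 111 and 136, and 1446294_at was lowest there, at 227, 223 and 188. Over the 4 Tcf12 probe sets on all arrays, 1 was higher and 3 were lower on DKO than on WT. A direction for the gene as a whole therefore cannot be given, and which transcripts or starts each probe set reads was not known.

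**Figure D2:**
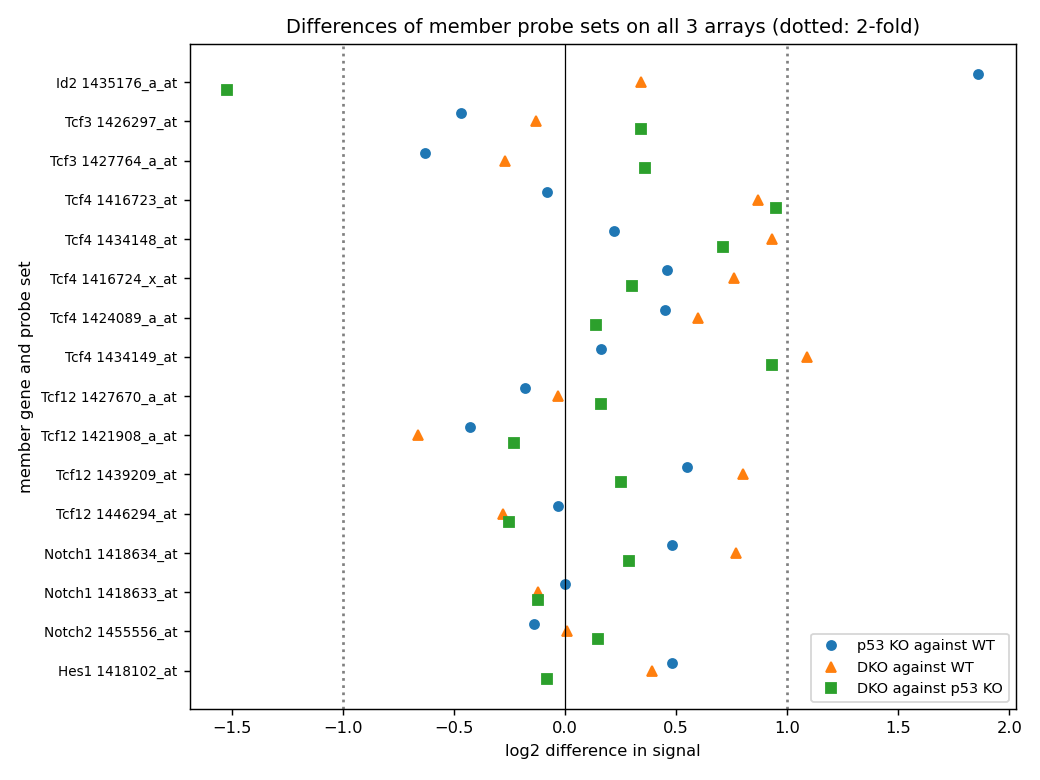
Log2 difference in signal of the 16 member probe sets that reached the floor on all 3 arrays, with 1 row per probe set and 1 mark for each of the 3 comparisons; dotted lines mark 2-fold. Id2 lies at 1.86 between p53 KO and WT and at -1.52 between DKO and p53 KO, Tcf4 rows lie from 0.60 to 1.09 for DKO against WT, and Tcf12 and Notch1 rows disagree within the gene.

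Notch1, the receptor that commits progenitors to T cells, was measured by a pair of probe sets that disagreed. Signals of 1418634_at were 1119 on WT, 1563 on p53 KO and 1904 on DKO, with log2 differences of 0.48 and 0.77 from WT. Signals of 1418633_at were 292, 293 and 269, with differences of 0.00 and -0.12. Higher Notch1 on the knockout arrays was thus seen with 1 of its 2 probe sets and did not reach 2-fold. Notch2, a receptor used by marginal zone B cells and by marrow progenitors, had signals of 3535, 3217 and 3569 by 1455556_at, within 1.11-fold. Its other probe set, 1451889_at, was at 77.1, 102 and 123.

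Hes1, a repressor that Notch activates, had signals of 157 on WT, 219 on p53 KO and 207 on DKO. Both knockout arrays were somewhat higher, by 0.48 and 0.39. These signals were close to the floor, and the difference of DKO from WT was 0.07 with quantile normalization and 0.08 with cyclic loess. These methods align the signal distributions of the arrays.

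The members past 2-fold were counted beside all 12597 measured genes. For p53 KO against WT, 1 of 8 member genes (Id2) was at least 2-fold higher and 0 were lower, where 6.51% and 3.19% of all measured genes were. For DKO against WT, 0 of 8 were higher and 0 lower, where 5.22% and 3.10% of all genes were. For DKO against p53 KO, 0 of 8 were higher and 1 (Id2) was lower, where 4.10% and 5.93% of all genes were. With 8 members, counts of 0 or 1 beside such backgrounds are no result about the members as a group.

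At 1.5-fold, Tcf4 and Notch1 were higher on DKO than on WT, 2 of 8 where 17.1% of all genes were, and 0 were lower, where 9.52% were. For p53 KO against WT, 1 of 8 (Id2) was higher and 0 were lower at 1.5-fold, beside 15.4% and 12.5% of all genes. Against p53 KO, Tcf4 was higher and Id2 lower on DKO, 1 of 8 each beside 17.0% and 12.2%. At 3-fold, 0 of 8 were lower on DKO than on p53 KO, beside 2.49%.

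The same counts were taken over the 20 measured member probe sets. For DKO against WT, 7 of 20 were at least 1.5-fold higher, 5 of them of Tcf4, where 17.8% of all 26317 measured probe sets were, and 1 of Tcf12 was lower, where 8.49% were. For p53 KO against WT, 1 of Id2 was higher and 1 of Tcf3 was lower at 1.5-fold, beside 13.7% and 11.7%. For DKO against p53 KO, 3 of Tcf4 were higher and 1 of Id2 was lower, beside 17.8% and 10.7%. At 2-fold, 1 of 20 (Id2) was higher and 0 lower on p53 KO than on WT, beside 5.36% and 2.86%. On DKO, 1 of 20 (Tcf4) was higher and 0 lower than on WT, beside 5.22% and 2.60%, and 0 were higher and 1 (Id2) lower than on p53 KO, beside 4.38% and 4.81%. Probe sets of a gene share its transcripts and are not independent. The median log2 difference of the 8 genes from WT was -0.11 on p53 KO, where all measured genes had 0.00, and 0.18 on DKO, where all had 0.07. Between DKO and p53 KO it was 0.15, where all measured genes had 0.11.

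**Figure D3:**
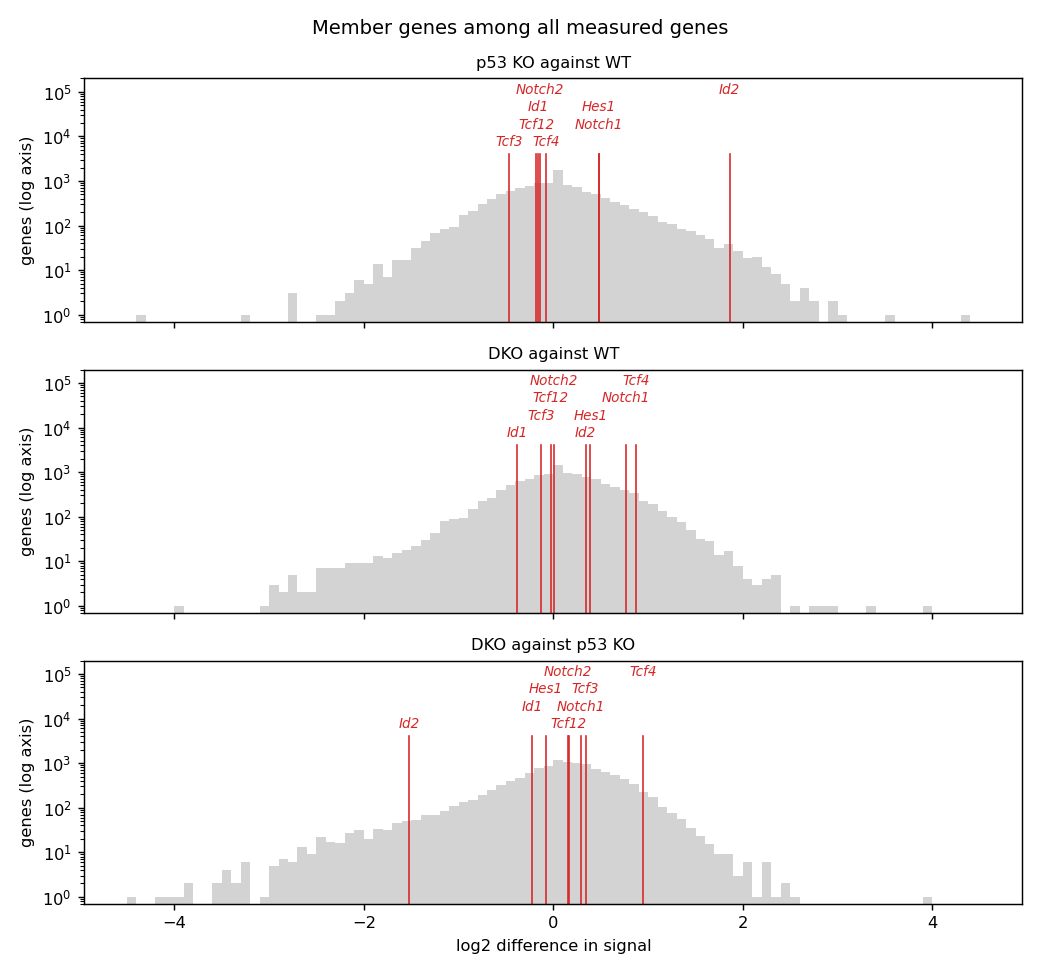
Histograms of the log2 difference in signal of all 12597 measured genes (grey, number of genes on a log axis) in each comparison, with the 8 measured member genes marked by red lines. In p53 KO against WT and in DKO against p53 KO only Id2 stands past 2-fold (1.86 and -1.52), and in DKO against WT Tcf4 (0.87) and Notch1 (0.77) are the highest members.

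Id2 was the member whose highest and lowest signals differed by at least 2-fold with both measured, so genes of like pattern were sought for it. Likeness was the larger of the 2 gaps in log2 difference from WT, among 10088 other genes at or over the floor on all 3 arrays. The nearest were Cd5l, which encodes a secreted macrophage protein (137 on WT, 491 on p53 KO and 173 on DKO, gap 0.012), and Nrp1, which encodes a semaphorin and VEGF co-receptor (415, 1511 and 552, gap 0.072). Spib, an ETS factor of B and plasmacytoid dendritic cells, followed (283, 1043 and 384, gap 0.097). Only 13 genes lay within 0.2 of Id2, and the measure rests on 3 arrays.

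The summed signals of the monocyte, B cell, megakaryocyte and neutrophil marker lists were also highest on the p53 KO array, and stand here beside Id2. Of 7 monocyte markers, 6 were at least 2-fold higher on p53 KO than on WT, and their summed signal was 22278 on WT, 56850 on p53 KO and 23535 on DKO. B cell markers were higher for 5 of 6, with sums of 1650, 5621 and 2331, and megakaryocyte markers for 5 of 8, with sums of 4679, 13465 and 7824. Neutrophil markers were higher for 6 of 10, with sums of 120913, 209932 and 101845. Single genes of these lists departed from their sum, with Elane (800, 1719 and 2308), Itga2b (1215, 1975 and 2366) and Gp1bb (177, 327 and 350) highest on DKO.

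NK and dendritic cells are known for high Id2, and their lists had the highest sum on DKO through 1 gene each. Of 5 NK cell markers on the array 3 were measured, and 2 were higher on p53 KO, Klrd1 (171 on WT, 540 on p53 KO and 333 on DKO) and Gzma (107, 361 and 122). The sum over all 5 was 1551, 2747 and 3303. Nkg7, a granule protein gene at 1176, 1667 and 2724, was highest on DKO, and without it the sum was 374.1, 1080 and 579. In the same list the NK receptor Ncr1 and perforin (Prf1) were below the floor on all arrays, and their signals are part of these sums. Of 5 measured dendritic markers, 2 were higher on p53 KO, the integrin Itgax (143, 556 and 391) and the MHC class II chaperone Cd74 (618, 1438 and 647), with sums of 3334, 3779 and 6051 over all 6 listed. Without Flt3, which progenitors also express, the dendritic sum was 947.6, 2287 and 1323. Nkg7 and Flt3 were left out after their values were seen, so no likeness to Id2 is read from the sums that remain. Of 4 measured stroma and endothelium markers 2 were higher on p53 KO, and the sum over all 7 was 1612, 4006 and 3373. The part of these cells in the Id2 value was not tested.

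Dendritic markers stand here beside Tcf4 on DKO and gave no single order. Of the 6 listed, the plasmacytoid marker Siglech was below the floor on every array, at 73.4 on WT, 95.8 on p53 KO and 34.4 on DKO. Xcr1 (43.0, 66.4 and 121) and Ly6d (69.7, 131 and 129) were just over it on DKO and below it on WT. Against WT, Itgax was 1.45, Flt3 0.99 and Cd74 0.06 higher on DKO. Of 5 LSK markers, Flt3 (2387 on WT, 1492 on p53 KO and 4728 on DKO) and Cd34 (2230, 2442 and 6633) were clearly highest on DKO, and Cd34 alone was past 2-fold there against WT. Kit, given above, was highest on WT, Procr (547, 782 and 589) on p53 KO, and Slamf1 differed little (475, 549 and 579). The summed signal of the 5 was 10635, 7787 and 17402. The erythroid sum was lowest on DKO, with values of 78498, 67072 and 15788. Single erythroid genes departed from it on p53 KO. Of 8 measured, 2 were at least 2-fold higher there than on WT, Alas2 (1787, 11459 and 1091) and Epb42 (1199, 6526 and 408). Car1 (25815, 9638 and 5778) was the 1 lower. The T cell receptor genes Cd3e and Cd3g and the co-receptor Cd4 were below the floor on all arrays. Other T cell markers were not, with Cd3d at 50.7, 217 and 20.4, Cd8a at 254, 284 and 34.8, Cd5 at 101, 101 and 185 and Lat at 524, 570 and 840. The sum of the 7 was 996.4, 1233 and 1184. Whether the make-up of the sorted cells has a part in the Tcf4 value was not tested.

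**Figure D4:**
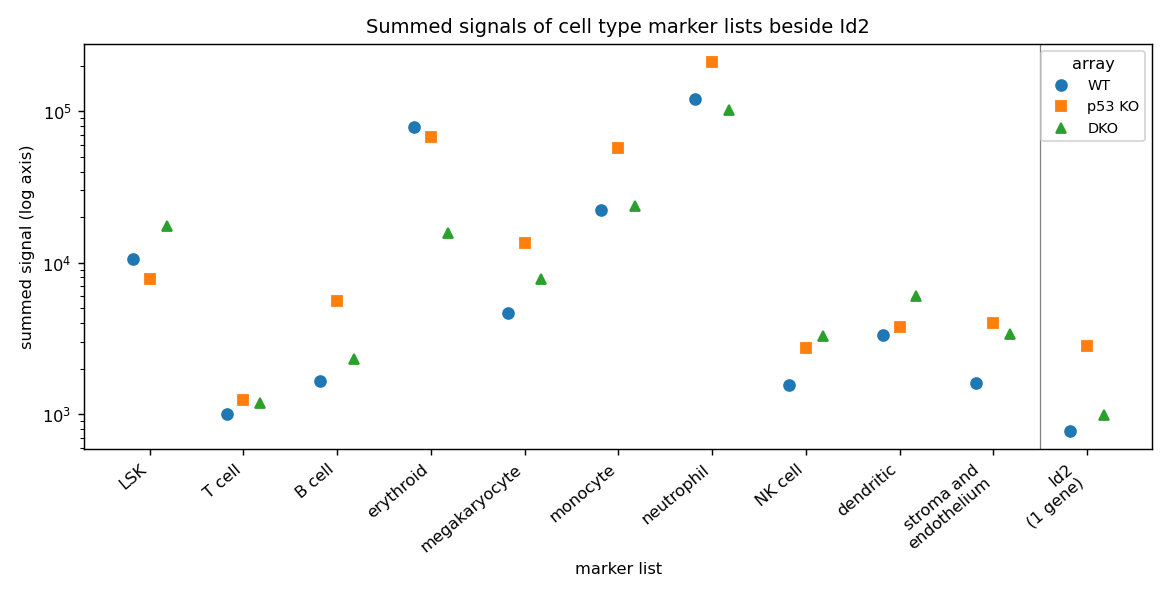
Summed signal on a log axis of the genes of each cell type marker list by array (WT, p53 KO, DKO), beside the Id2 signal at the right. B cell, megakaryocyte, monocyte and neutrophil sums are highest on p53 KO, as Id2 is at 2817. The stroma and endothelium sum (4006) and, by little, the T cell sum (1233) are highest there too. The erythroid sum is lowest on DKO at 15788. Sums depend on probe brightness and are compared only within a list.

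Of 11 listed helix-loop-helix and LIM partners 8 were measured, and 1 was at least 2-fold higher and 1 lower on p53 KO than on WT, with a median of -0.04. Ldb1, the adaptor that joins Lmo2 and Tal1 into an E protein complex, was the lower at 1547 on WT, 598 on p53 KO and 879 on DKO (-1.37 and -0.82). Bhlhe40, a helix-loop-helix repressor, was the higher at 66.3, 342 and 27.8, by at least 1.63 against WT. Tal1 was at 3539, 3729 and 2622, Lyl1 at 1821, 2403 and 3068, and Lmo2 at 10058, 9088 and 10834. Against WT, 0 of the 8 were past 2-fold on DKO, with a median of 0.01.

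Genes listed as E protein targets, most of them lymphoid, had positive medians on both knockout arrays against WT, although Flt3 was lower on p53 KO (-0.68). On p53 KO 9 of 15 measured genes were at least 2-fold higher than on WT and 0 lower, with a median of 1.25, and on DKO 6 were higher and 0 lower, with a median of 0.91. Both comparisons share the WT array. The largest differences on p53 KO were those of Igll1 (2.45), Ebf1 (2.28), Vpreb1 (2.24) and Il7r (2.05). On DKO they were those of Dntt (2.93), Il7r (1.58), Igll1 (1.43) and Cdkn1a (1.15). Cdkn1a encodes a general cell cycle inhibitor and is not a lymphoid gene. On DKO against p53 KO, 2 were higher, Flt3 (1.66) and Dntt (1.61), and 5 were lower, among them Ebf1 (-1.76) and Vpreb3 (-1.15). Several of these genes are also B cell markers, whose sums are given above.

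Among Notch ligands, Jag2 was at 185 on WT, 83.1 on p53 KO and 350 on DKO, Dll4 at 120, 154 and 220 and Dll1 at 81.0, 88.2 and 198. Of 5 measured ligands 0 were past 2-fold against WT in either knockout. All were dim, and Dll1, Dll3 (76.1, 72.2 and 122) and Jag1 (90.9, 54.2 and 147) reached the floor on the DKO array alone, so they could only come out as higher there and no median is read from this list. Jag2 was at least 1.66 higher on DKO than on p53 KO. Notch3, the third receptor measured, was at 161, 241 and 197, and Notch4 was below the floor.

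Of 15 measured genes that modify or cleave Notch, each read by its brightest probe set, 0 were past 2-fold on p53 KO and 2 were on DKO against WT. Mfng, a fringe sugar transferase, was at 631 on WT, 812 on p53 KO and 1604 on DKO (1.35 against WT). Psen2, a catalytic subunit of gamma-secretase, was at 2034, 1222 and 923 (-1.14). The sheddase Adam10 was at 9998, 11634 and 11229. Of 9 measured genes of the nuclear complex 0 were past 2-fold, and Rbpj stood at 2833, 2763 and 3079. The median of these 9 was 0.32 on p53 KO and 0.29 on DKO.

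Among genes that temper Notch, Dtx4, a Deltex ubiquitin ligase, was at 232 on WT, 636 on p53 KO and 710 on DKO (1.45 and 1.61), and its other probe set was at 195, 333 and 476. Numb, an endocytic inhibitor of Notch, was at 939, 1782 and 862, so that p53 KO was high and the others close, as for Id2. Of the target genes, Nrarp was at 564, 643 and 656 and Dtx1 at 288, 257 and 258. The other Nrarp probe set was at 244, 38.5 and 191, below the floor on p53 KO alone. Its log2 difference for p53 KO against WT was -1.14 or lower, beside 0.19 by the brightest, so the Nrarp probe sets disagreed. Hes5 was at 154, 78.9 and 328, past 2-fold on DKO against WT (1.09), a call that was lost with quantile normalization and cyclic loess, where 0 of 7 measured targets were higher. Myc, which many other signals also set, was at 3532, 1624 and 3137. Hey1, Hey2, Il2ra, Gata3 and Ptcra were below the floor on every array.

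Over the 42 measured genes of all Notch lists, 1 was at least 2-fold higher and 1 lower on p53 KO than on WT, with a median of 0.00. Of all measured genes 6.51% and 3.19% were. On DKO 3 were higher and 1 lower, beside 5.22% and 3.10% of all genes, with a median of 0.29. The medians over all measured genes were 0.00 and 0.07. All 42 reached the floor on DKO, but 37 did so on WT and 36 on p53 KO. Dll1, Dll3, Jag1 and Heyl reached it on DKO alone and could only come out as higher there. The DKO median is therefore not read as a shift of these genes.

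Of 19 measured genes of BMP and TGF-beta signalling, through which Id genes are induced, 0 were past 2-fold on p53 KO and 2 were higher on DKO against WT. They were Smad1, which carries BMP signals to the nucleus, at 965, 1369 and 2174 (1.17), and the receptor Bmpr2, at 1304, 2454 and 2657 (1.03). Id1 was lower on DKO than on WT, and Id3 was below the floor on all arrays and cannot be compared. A link between these genes and the Id genes was not tested. Immediate early genes, which are switched on within minutes of a stimulus, were higher for 10 of 15 on p53 KO and for 9 of 15 on DKO against WT, and 1, Myc, was lower on p53 KO. Fos led both at 1384, 5890 and 14202, and Egr1 was at 925, 860 and 2830. The list had no single order. Btg2 (650, 2052 and 818), Klf4 (542, 1626 and 686) and Klf6 (521, 1544 and 588) were instead highest on p53 KO. On DKO against p53 KO, 3 of 15 were higher and 3 lower, beside 4.10% and 5.93% of all genes. Of the members, Id2 (777, 2817 and 985) was highest on p53 KO, as Btg2, Klf4 and Klf6 were. Hes1 was also highest there but near the floor, and Id1 was highest on WT. A link of the members to these genes was not tested.

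**Figure D5:**
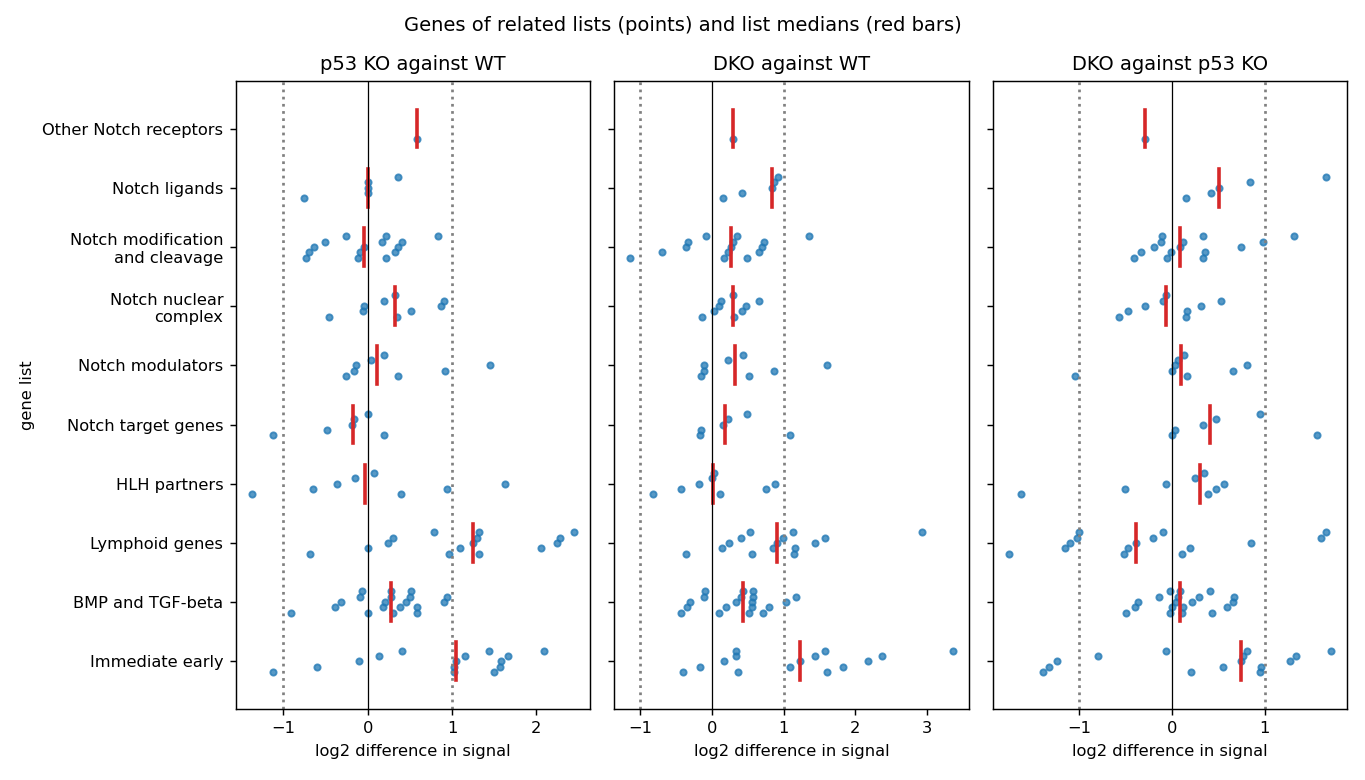
Log2 difference in signal of the measured genes (points) of 10 related gene lists and the median of each list (red bars) in the 3 comparisons, with 2-fold dotted. Lymphoid and immediate early lists have medians of 1.25 and 1.05 for p53 KO against WT, while Notch list medians lie between -0.17 and 0.58 there.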

How the data were processed

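Expression was measured on 1 Affymetrix array for each of 3 genotypes of LSK cells. The deposited table holds linear signal intensities, made by the authors with GCOS and MAS5 per the submitters' processing notes, with no version or genome build given in the sources used here. Each array had a 2% trimmed mean of 500.

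Symbols came from the platform annotation, updated through Entrez IDs with a RefSeq table for 34754 of the 34958 probe sets with 1 symbol. Tcf7l1 and Tcf7l2, which have also been called Tcf3 and Tcf4, were kept apart from them. Of the remaining probe sets, 932 had several symbols and 9211 were unnamed. Signals were floored at the 50th percentile (110.4), and a gene was measured if its probe set of highest mean signal reached the floor on at least 1 array. With 1 array per group, depth and error are unknown and no p-value was computed. The counting was tested on simulated data, with shifts set into bright probe sets and an assumed spread. That checks the counting only and says nothing about the error of these arrays or about signals near the floor.

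Named genes were all members, up to 4 genes of each list with the largest differences and genes a sentence is about, and the 3 genes nearest in pattern to a member differing 2-fold. The members and lists were chosen with earlier results of these data known. Levels named beside a result without being among the 4 largest were chosen after their values were seen. Calculations used Python 3.11.15, pandas 2.3.3, R 4.3.3 and limma 3.58.1. Alternatives were other scalings, floors, probe set rules and fold thresholds.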

Additional observations from a re-analysis of the deposited data

How the results depend on the processing

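Id2 was the single member past 2-fold, higher on p53 KO than on WT and lower on DKO than on p53 KO. Both counts of 1 became 0 with each gene taken as the mean of its probe sets, where Id2 was at 0.63 and -0.51, and with probe sets unique to a transcript, where the Id2 probe set left was under the floor and 6 members were measured. The count of 1 for DKO against p53 KO was also 0 at 3-fold. With a pseudocount of 32 and no floor, Id3 counted as lower on DKO, giving 1 against WT and 2 against p53 KO, though its signals were all under the floor. Tcf4 made the count of higher members 1 for DKO against p53 KO with quantile normalization (1.01) and at 1.5-fold, and Tcf4 and Notch1 made it 2 for DKO against WT at 1.5-fold. The other member counts were within 1.5 times those reported. Among list counts for p53 KO against WT, higher E protein partners went from 1 to 2 with cyclic loess, and higher stroma and endothelium markers from 2 to 1 with quantile normalization and with cyclic loess. LSK markers higher on DKO against WT went from 1 to 2 with both methods, as did dendritic markers, and immediate early genes went from 9 to 7. T cell markers higher on p53 KO against WT went from 0 to 1 with both. Over all Notch lists, genes higher on DKO against p53 KO went from 3 to 5 with quantile normalization. Other list counts moved too, so those named are examples. Member medians ranged from -0.11 to 0.20 for p53 KO against WT, 0.01 to 0.58 for DKO against WT and 0.06 to 0.27 for DKO against p53 KO. Of single genes, Tcf12 ranged from -0.18 to 0.55 and Tcf4 from -0.08 to 0.20 for p53 KO against WT, and Tcf12 from -0.03 to 0.80 for DKO against WT, so these signs changed with the setting. Id1 ranged from -0.96 to -0.38 for DKO against WT and from -0.80 to -0.22 against p53 KO. The NK and dendritic sums without Nkg7 and Flt3 were chosen after seeing the data. Cyclic loess moved the median of all genes for DKO against p53 KO by -0.11. Precision is limited by the number of arrays, and Id1, Id3 and Hes1 by signal near the floor.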
